A study of Homo sapiens with 4 samples.

Results

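The genes described here receive, pass on or restrain canonical Wnt signals, from the cell surface to the nucleus. They are the R-spondin receptors LGR4 and LGR5, the Wnt co-receptors LRP5 and LRP6, the E3 ubiquitin ligases RNF43 and ZNRF3, the scaffolds AXIN1 and AXIN2, the transcriptional co-activator CTNNB1 (beta-catenin) and its DNA-binding partner TCF7L2. Members were found by name: each of the 10 had at least 1 probe, giving 11 probes of 26423 on the array and 10 of its 17778 gene names. AXIN1 had 2 probes and the other members 1 each. The group was built around LGR4, which was chosen by its lower signal with berberine in these same samples, so the differences between the groups are descriptions: no p-value is given for a member, and counts of members past a threshold stand only beside those of all genes, with nothing read from them.

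By their labels the samples are RNA of HepG2 cells, a human hepatocellular carcinoma line. The arrays cover 2 samples given 26.95 µM berberine, a plant alkaloid, for 24 hours and 2 control samples without it. The samples' free-text description instead states 13.47 µM berberine and 48 hours of a differentiation labelled MDI. These 2 accounts were not reconciled, and for that reason liver and fat markers are given below. Each sample was hybridised to 1 one-colour array whose probe names are those of a mouse design, so a gene name stands for the signal of a mouse probe and does not measure the human RNA directly. The labels do not state whether the replicates are separate cultures, so a p-value here reflects the scatter of these arrays alone and that scatter may be technical. In total RNA of a culture, fewer expressing cells and less RNA per cell cannot be told apart.

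Canonical Wnt signalling starts when a Wnt ligand joins a Frizzled receptor to LRP5 or LRP6. RNF43 and ZNRF3 mark Frizzled for removal from the membrane, and R-spondins bound to LGR4 or LGR5 take these ligases away, which leaves more receptor at the surface. In the cytoplasm AXIN1 or AXIN2 holds beta-catenin for phosphorylation and destruction until a Wnt signal stops it, after which beta-catenin enters the nucleus and binds TCF7L2. AXIN2, LGR5, RNF43 and ZNRF3 are themselves known targets of beta-catenin, and in liver the pathway is known for setting the gene programme of hepatocytes around the central vein. HepG2 cells are known to carry a deletion in CTNNB1 that removes the phosphorylation sites of beta-catenin and stabilises the protein.

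The sequences just before the annotated starts of LGR4, RNF43 and CTNNB1 are shown because these are the members whose groups lay apart under each of 3 scalings and for which RefSeq promoters (GRCh38.p14) were at hand. RefSeq windows matched 6 of the 10 members (AXIN1, CTNNB1, LGR4, LRP5, RNF43 and TCF7L2), in 9 windows of 250 bases. They belong to the human genes and not to the mouse probes. Capitals mark matches, on either strand, to the CCAAT box (its own letters), the GC box (GGGCGG), the TATA box (TATAAA), the AP-1 motif (TGANTCA), the EGR motif (GCGNGGGCG) or the TCF/LEF motif, searched as 4 seven-letter forms that begin with CTTTG and end in any pair of A and T. The EGR motif can overlap the GC box.
LGR4, chr11:27472791-27473040, minus strand: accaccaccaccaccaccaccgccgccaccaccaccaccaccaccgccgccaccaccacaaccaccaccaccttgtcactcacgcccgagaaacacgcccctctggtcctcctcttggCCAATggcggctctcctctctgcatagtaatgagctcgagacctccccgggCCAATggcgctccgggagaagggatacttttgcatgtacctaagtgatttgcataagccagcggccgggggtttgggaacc
RNF43, chr17:58417535-58417784, minus strand: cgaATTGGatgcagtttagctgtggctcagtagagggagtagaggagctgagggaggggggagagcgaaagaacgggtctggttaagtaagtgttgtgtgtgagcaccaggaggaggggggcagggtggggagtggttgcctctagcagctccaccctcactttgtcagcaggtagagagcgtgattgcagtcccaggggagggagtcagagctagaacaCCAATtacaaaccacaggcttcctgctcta
CTNNB1, chr3:41199255-41199504, plus strand: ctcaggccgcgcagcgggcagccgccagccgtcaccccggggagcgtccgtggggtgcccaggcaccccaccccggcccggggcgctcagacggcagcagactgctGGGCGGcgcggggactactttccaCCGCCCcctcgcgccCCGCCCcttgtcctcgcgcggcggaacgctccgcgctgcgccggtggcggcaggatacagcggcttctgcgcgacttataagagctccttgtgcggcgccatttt
The LGR4 window held 2 CCAAT matches, the RNF43 window 2 and the CTNNB1 window 3 GC boxes. A CCAAT match occurred in 32.0% and a GC box in 42.6% of all 35116 promoter windows of this length. The TCF/LEF letters matched in 1 of the 9 windows of members, one of the 3 of TCF7L2, and in 4199 of all 35116. An EGR match was present in the AXIN1 window and in 1 TCF7L2 window, against 8.41% of all windows. A second RNF43 window, at an inner start, held 1 AP-1 match, which 6.57% of all windows had. TATAAA occurred in 10.7% of all windows. A match describes letters and says nothing of binding.

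Levels below are log2(intensity + 1) after quantile normalization over all probes, unless they are called deposited intensities. Errors are SDs over the 2 samples of a group, and a difference is berberine minus control with its SE from the limma fit over all genes. As a scale for dim signals, the 528 genes named as olfactory receptors (OLFR, mouse names of genes that serve smell) had a median level of 6.05 and a 95th percentile of 9.24. Of the 10 members, 2 had a mean over the samples above that percentile, LGR4 and LRP5, and 8 lay below it. LRP6 and TCF7L2 also lay below the median gene, at 6.54. Sample medians of the deposited intensities were 77 and 85 with berberine and 90 and 62 in controls.

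**Figure D1:**
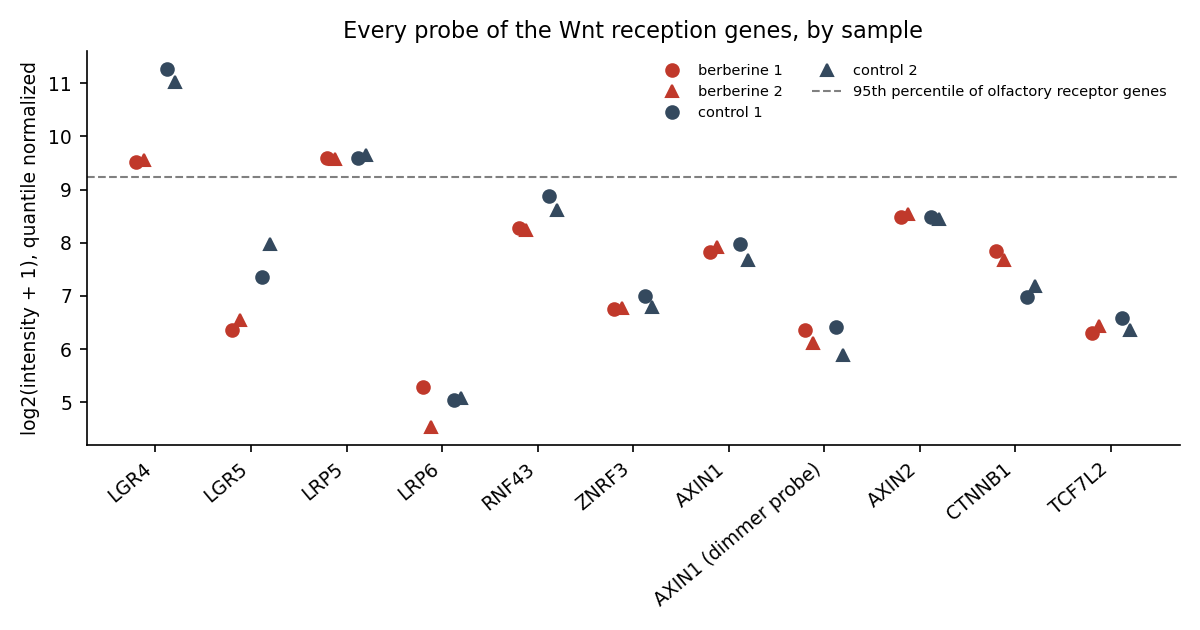
Level of every probe of the 10 genes (log2(intensity + 1), quantile normalized) in the 2 berberine samples (red) and the 2 control samples (dark), with the 95th percentile of olfactory receptor genes (9.24) as a dashed line. LGR4 is near 9.5 in both berberine samples and above 11 in both controls, while LRP5 lies at 9.6 in every sample and the other genes lie under the line.

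LGR4, the broadly expressed R-spondin receptor, had the largest difference of the group, except without control replicate 1, where LGR5 was at -1.53 and LGR4 at -1.49. Its deposited intensities were 612 and 755 in the berberine samples, against 2803 and 2069 in controls. On the normalized scale it read 9.51 and 9.56 with berberine and 11.27 and 11.02 in controls. Both berberine samples lay far below both controls, and all 4 values were above the olfactory receptor percentile. The group means were 9.54 ± 0.03 with berberine and 11.15 ± 0.18 in controls (SD, n = 2 each), a difference of -1.61 with an SE of 0.137, or a signal 3.05-fold lower. Of the 17778 genes, 50 had a more negative difference.

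LGR5, the related receptor known as a marker of stem cells in several epithelia, was lower too, at a dimmer signal. It had deposited intensities of 78 and 101 with berberine and 183 and 238 in controls. The levels were 6.36 and 6.54 with berberine, against 7.35 and 7.98 in controls. The groups did not overlap, yet the 2 controls differed from each other by more than the berberine samples did. Means of 6.45 ± 0.13 with berberine and 7.66 ± 0.45 in controls (SD, n = 2 each) gave a difference of -1.21 with an SE of 0.254, 2.32-fold lower. All of these values lie in the range of the olfactory receptor probes.

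RNF43, one of the ligases that clear Frizzled from the surface, read lower with berberine. The deposited intensities were 269 and 307 in berberine samples and 537 and 377 in controls. Its levels were 8.28 and 8.23 with berberine, against 8.88 and 8.61 in controls, with no overlap between the groups. That is a difference of -0.48 with an SE of 0.142, 1.40-fold lower.
ZNRF3, the second ligase, had levels of 6.75 and 6.78 with berberine and 6.99 and 6.78 in controls. Its groups lay apart only in the third decimal, and as deposited they overlapped, with intensities of 98 and 114 in berberine samples and 145 and 92 in controls. The difference was -0.12 with an SE of 0.128.

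Both co-receptors overlapped between the groups after quantile normalization. LRP5, which carries the Wnt signal across the membrane together with Frizzled, had levels of 9.59 and 9.57 with berberine and 9.58 and 9.65 in controls. This probe was above the olfactory receptor percentile in every sample, with a difference of -0.03 and an SE of 0.107. As deposited its groups lay apart, at 649 and 763 with berberine and 887 and 806 in controls, and they lay apart with median centring too, lower with berberine in both. LRP6, its close relative, read 5.29 and 4.54 with berberine, against 5.04 and 5.08 in controls. The berberine samples lay on either side of the controls, and the deposited intensities of 40 and 26 with berberine and 41 and 14 in controls were among the dimmest on the array, where 10.7% of genes were dimmer. The LRP6 difference of -0.14 had an SE of 0.286.

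The scaffolds of the destruction complex overlapped between the groups after quantile normalization and as deposited, while with median centring AXIN2 and the brighter AXIN1 probe were lower with groups apart. AXIN2, which is widely used as a readout of Wnt activity, had levels of 8.48 and 8.54 with berberine and 8.49 and 8.45 in controls. These 4 values span less than 0.1, and the difference was 0.04 with an SE of 0.107. The brighter AXIN1 probe read 7.82 and 7.92 with berberine, against 7.98 and 7.67 in controls, a difference of 0.05 with an SE of 0.156. The dimmer AXIN1 probe read 6.36 and 6.12 with berberine and 6.42 and 5.88 in controls, a difference of 0.09. For both AXIN1 probes the berberine values lay inside the range of the controls.

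CTNNB1 was the 1 member with a higher signal in both berberine samples than in both controls. It had deposited intensities of 201 and 210 with berberine and 143 and 129 in controls. The levels were 7.85 and 7.67 with berberine, against 6.97 and 7.18 in controls. The difference was 0.68 with an SE of 0.141, 1.61-fold higher, with 620 genes showing a larger positive one. TCF7L2, the factor through which beta-catenin reaches DNA, read 6.31 and 6.43 with berberine and 6.59 and 6.36 in controls, so that its groups overlapped, with a difference of -0.11 and an SE of 0.140.

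**Figure D2:**
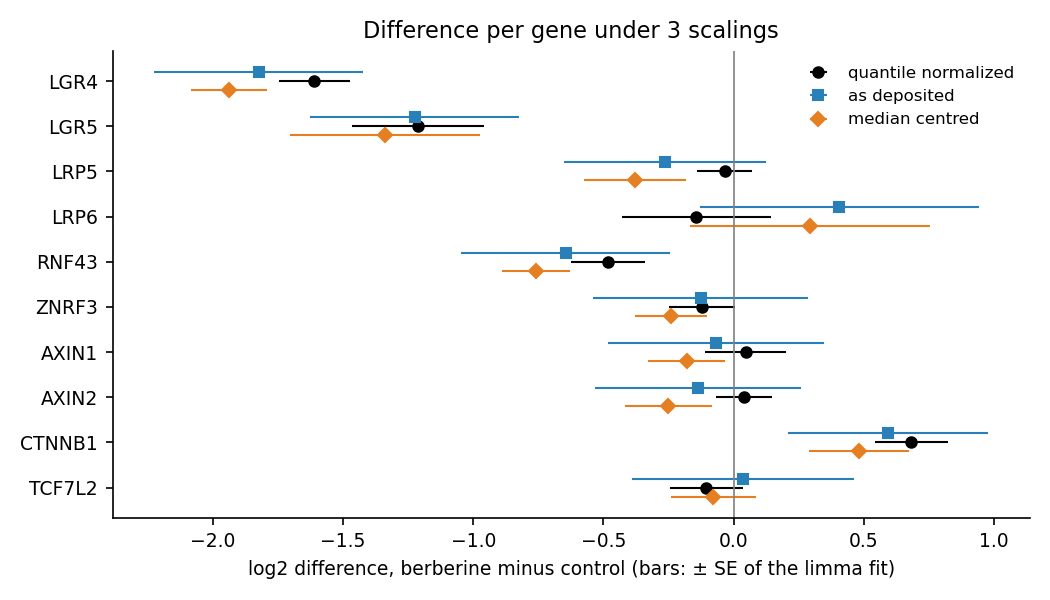
Difference of each gene (log2, berberine minus control, n = 2 in each group) after quantile normalization, as deposited and after centring each sample on its median, with bars of ± 1 SE from limma. LGR4, LGR5, RNF43, LRP5 and ZNRF3 lie below 0 and CTNNB1 above it under all 3 scalings. LRP5 at -0.03 and ZNRF3 at -0.12 are near 0 after quantile normalization. LRP6, AXIN1, AXIN2 and TCF7L2 change side.

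Across the 10 members, 4 were lower with groups apart (LGR4, LGR5, RNF43 and ZNRF3), 1 was higher with groups apart (CTNNB1) and 5 overlapped. These counts are after quantile normalization, where the groups did not overlap for 45.0% of all genes, with 23.3% lower and 21.7% higher. As deposited 4 members were lower with groups apart (LGR4, LGR5, LRP5 and RNF43), 1 was higher and 5 overlapped, where 24.1% of all genes had groups apart. With median centring 7 were lower (LGR4, LGR5, LRP5, AXIN1, AXIN2, RNF43 and ZNRF3), 1 was higher and 2 overlapped, where 47.2% of all genes had groups apart. In limma's test without an intensity trend, 0 of the 10 members passed an adjusted p of 0.05, where 0.0506% of all genes did. At an unadjusted limma p under 0.05 there were 4 members, against 13.0% of all genes. In limma's test with an intensity trend in the variance model (the trend test below), 1 member passed, LGR4, where 1.46% of all genes did, 0.501% lower and 0.962% higher. Without any 1 of the 4 samples the trend test passed 0 members and 0 of all genes. Because this contrast was used to choose the group, nothing is read from these counts.

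The scaling of the arrays moved large differences as well as small ones, and the sign turned only for members with small differences. As deposited, the median difference of genes above the olfactory receptor percentile was -0.26, and with median centring it was -0.38, against -0.04 after quantile normalization. The median over all genes moved less, to 0.08 and -0.03, against -0.01 after quantile normalization. LGR4 was at -1.82 as deposited and -1.94 with median centring, LGR5 at -1.22 and -1.34, and RNF43 at -0.65 and -0.76. CTNNB1 was at 0.59 as deposited and 0.48 with median centring. LRP5, at -0.26 and -0.38, was close to the median of the bright genes. AXIN2 turned to -0.14 as deposited and -0.25 with median centring, AXIN1 to -0.07 and -0.18, and LRP6 to 0.41 and 0.29, while TCF7L2 was at 0.04 and -0.08.

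**Figure D3:**
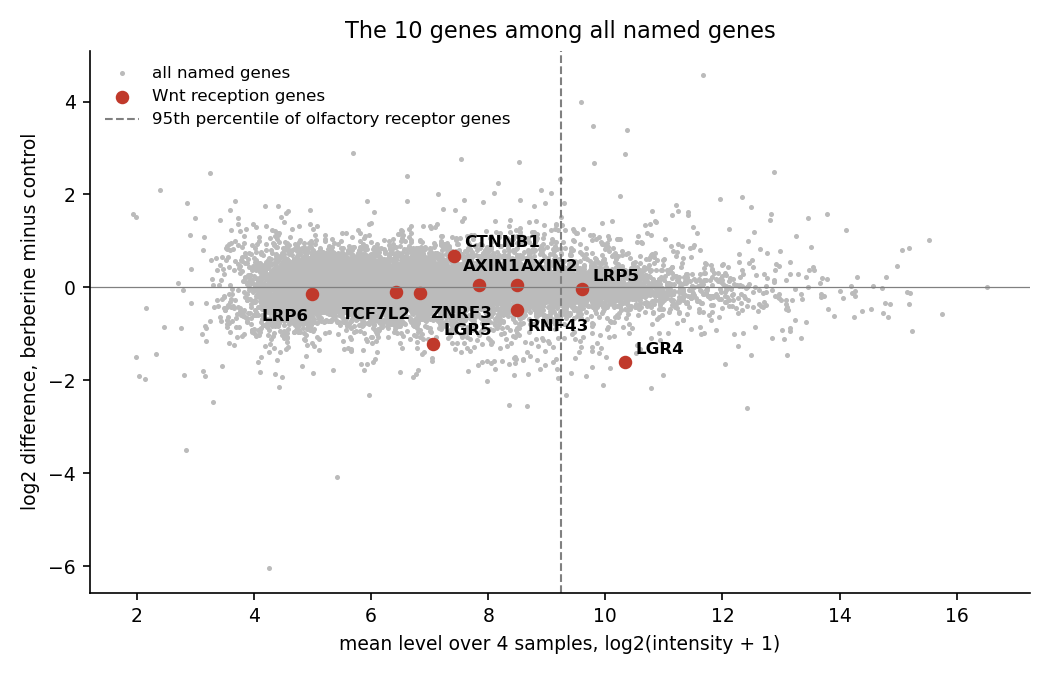
Difference (log2, berberine minus control) against mean level over the 4 samples for all 17778 named genes (grey) and the 10 Wnt reception genes (red), with the olfactory receptor 95th percentile (9.24) as a dashed line. LGR4 lies on the lower side of the cloud at -1.61, to the right of the line, and 50 of all genes had a more negative difference. LGR5 lies on the lower edge of the cloud at a dim signal, and LRP5 lies near a difference of 0.

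The rest of the Wnt pathway was compared through a list of 106 genes in 8 roles, of which 99 were measured and the other 7 were not analysed here. Of the 99 genes 0 passed limma's test without a trend, where 0.0506% of all genes did. At an unadjusted limma p under 0.05 there were 19, 15 higher and 4 lower, against 13.0% of all genes in either direction. The share of all genes was not split by direction. As deposited 3 of the 99 and 491 of all genes were under that p, and with median centring 13 and 2244. In the trend test 2 of the 99 passed, both higher with berberine, against 0.962% of all genes that passed upward. They were CSNK1A1 and PPARD. After quantile normalization the groups did not overlap for 55.6% of the list, 35 genes higher and 20 lower, beside the 45.0% of all genes. The list's median difference was 0.07, against -0.01 for all genes, and with median centring both were negative, at -0.03. None of the 99 genes passed the trend test without any 1 of the 4 samples.

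CSNK1A1 encodes casein kinase 1 alpha, which adds the priming phosphate that marks beta-catenin for destruction. Its levels were 11.60 and 11.54 in berberine samples and 10.08 and 10.24 in controls, all above the olfactory receptor percentile. The difference was 1.41 with an SE of 0.119, or 2.66-fold higher (limma trend adjusted p = 0.00798, and 0.0928 without the trend). Over its 16 alternatives the adjusted limma p ran from 0.00798 to 1.00 and the difference from 1.07 to 1.49. PPARD, a nuclear receptor for fatty acids and a described target of beta-catenin, read 9.03 and 8.91 with berberine, against 7.97 and 7.76 in controls, below the olfactory receptor percentile. The difference was 1.11 with an SE of 0.136, 2.16-fold higher (limma trend adjusted p = 0.0286, 0.123 without the trend, and 0.0286 to 1.00 over the alternatives). CSNK1A1 and PPARD had 1 probe each.

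Among the 20 measured cytoplasmic transducers and destruction complex genes, CSNK1A1 was the 1 that passed the trend test. After quantile normalization 17 of the 20 had groups apart, 11 higher and 6 lower, or 85.0% beside 45.0% of all genes. Their groups were not counted under the other scalings, where the share of all genes was 24.1% as deposited and 47.2% with median centring. CSNK1E, casein kinase 1 epsilon, which phosphorylates Dishevelled, had levels of 8.34 and 8.25 with berberine and 7.70 and 7.47 in controls, a difference of 0.71 with an SE of 0.135 (limma trend adjusted p = 0.0842). These 20 genes had a median difference of 0.16, which turned to -0.05 with median centring. Of 13 measured target genes PPARD passed the trend test, 12 did not, and the median was 0.03.

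Ligands, their secretion and their agonists showed 0 genes past the trend test or the test without a trend. Of 19 Wnt ligands 4 had an unadjusted p under 0.05 in limma's test without a trend, all higher with berberine, against 13.0% of all genes in either direction. WNT9A, a Wnt ligand with a dim probe, read 5.91 and 5.80 with berberine, against 4.89 and 4.89 in controls, a difference of 0.96 with an SE of 0.111 (limma trend adjusted p = 0.0956). PORCN, the acyltransferase that lipid-modifies Wnt proteins, was at -0.26, and WLS, which carries Wnts to the surface, was at -0.63 with an SE of 0.938. WLS readings of 6.01 and 8.20 with berberine and 6.99 and 8.48 in controls separated the replicates more than the groups. Of the 4 R-spondins, the ligands of LGR4 and LGR5, none had a mean above the olfactory receptor percentile, and RSPO1, the one with the smallest p in the trend test, had levels of 5.15 and 5.17 with berberine and 4.60 and 4.89 in controls. The RSPO1 difference was 0.41 (limma trend adjusted p = 0.479).

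Other receptors and inhibitors also had 0 genes past both tests. FZD2, a Frizzled receptor with 2 probes, was at 0.34 for the brighter probe, with levels of 10.79 and 10.82 with berberine and 10.43 and 10.49 in controls, and at 0.29 for the dimmer one. With median centring the FZD2 difference was -0.02. LGR6, the third R-spondin receptor, read 6.36 and 6.61 with berberine, against 6.68 and 6.61 in controls, a difference of -0.16 with an SE of 0.139. DKK2, a secreted antagonist of LRP5 and LRP6, had levels of 9.40 and 9.51 with berberine and 9.78 and 9.84 in controls, a difference of -0.36 with an SE of 0.112 (limma trend adjusted p = 0.163). Of 12 nuclear partners of beta-catenin 0 passed. TCF7, a relative of TCF7L2, was at 0.64 with an SE of 0.172, and the co-repressor TLE1 at -0.38 with an SE of 0.122, with its dimmer probe at 0.03.

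**Figure D4:**
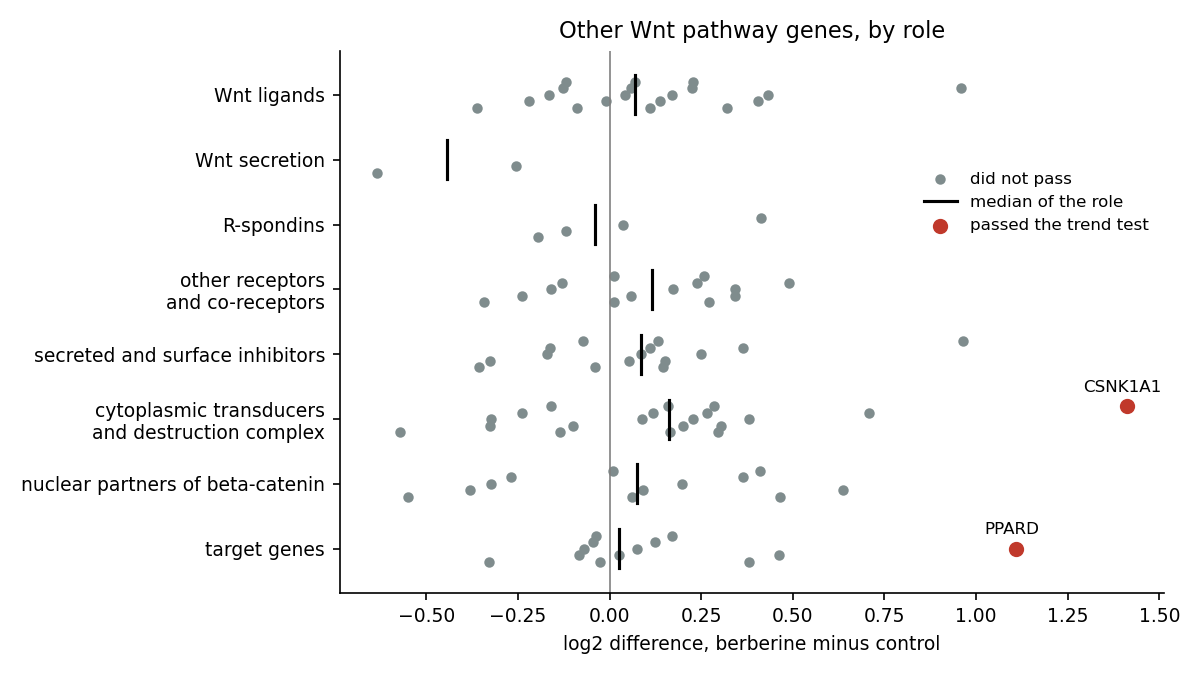
Difference (log2, berberine minus control) of the 99 other measured Wnt pathway genes, by role, with the median of each role as a black bar. CSNK1A1 at 1.41 and PPARD at 1.11, in red, passed limma's trend test, and the other genes in grey did not.

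The genes whose values over the 4 samples were most like those of LGR4 were sought among the 8888 other named genes brighter than the median gene, by the root mean square difference of log2 levels after each gene was centred on its own mean. The closest were ACOT13, an acyl-CoA thioesterase, at 0.061, SEPP1, the plasma selenium carrier selenoprotein P, at 0.0647, and RABL5, a small GTPase-like protein, at 0.068. They were followed by LRP1, a large endocytic receptor, at 0.0766, and DOK6, an adaptor protein, at 0.0935. Their differences were -1.53 for ACOT13, -1.68 for SEPP1, -1.49 for RABL5, -1.64 for LRP1 and -1.59 for DOK6. LRP1, at 11.29 and 11.14 with berberine and 13.02 and 12.69 in controls, belongs to the same receptor family as LRP5 and LRP6. These likenesses are descriptions over 4 samples.

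**Figure D5:**
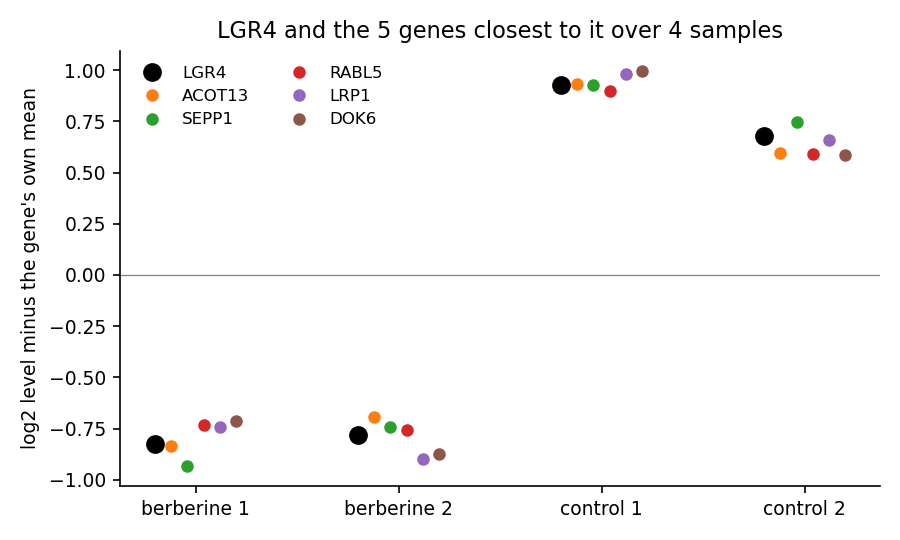
Level of LGR4 (black) and of the 5 genes closest to it, each minus its own mean over the 4 samples (log2). All 6 genes lie below 0 in both berberine samples and above 0 in both controls, which follows from how the 5 were picked.

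Liver and fat markers were read beside these results because of the conflicting sample descriptions. Of 18 hepatocyte markers 15 were measured and 1, RBP4, had a mean above the olfactory receptor percentile. AFP, the fetal alpha-fetoprotein made by HepG2 cells, averaged 4.80 with berberine and 4.70 in controls, below the olfactory receptor median of 6.05. The cell identity rests on the labels and was not tested. FGG, RBP4 and FOXA1 were lower in the trend test, where 0.501% of all genes were, while 6 of the 15 had positive differences and 8 overlapped between the groups. The summed normalized intensity of the list was 8457 and 10155 in berberine samples, against 18587 and 17458 in controls. Without RBP4 the sum was 1916 and 2327 in berberine samples, against 2966.5 and 2832 in controls. Of 17 measured adipocyte markers 0 passed the trend test and 3 had means above the percentile. Differences were positive for 6 of the 17 and negative for 11, and 7 overlapped between the groups. The summed intensity of the 17 was 3803 and 4594 with berberine and 4248 and 5777 in controls. CD36, the brightest of them, read 9.51 and 10.70 with berberine and 9.83 and 11.30 in controls, so its scatter enters these sums. A sum without CD36 was not taken. The part of these marker shifts in the values of LGR4 and the other members was not tested. Of 9 fibroblast and 7 macrophage markers 0 passed the trend test and 0 had means above the percentile. Their sums were 604 and 594 with berberine and 530 and 525 in controls for fibroblast markers, and 1190 and 1150 with berberine and 1102 and 996 in controls for macrophage markers.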

How the data were processed

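The deposited table holds one-colour array intensity values (Cy5-labelled RNA, per the labels' protocols) on a linear scale for 26423 probes. Which scanner, background correction and normalization were used was not given in the sources used. Deposited values below 0 numbered 1 and 11 in the berberine samples and 0 and 269 in controls. The platform annotation gave 20377 probes 1 gene symbol. Probes without a symbol or with several were treated as unnamed, 6046 in all. After quantile normalization over all probes, negative values became 0 and levels were taken as log2(value + 1). The brightest probe stood for a gene. All 17778 genes were fitted with R 4.3.3 and limma 3.58.1 (eBayes with no trend, 2-sided, Benjamini-Hochberg adjustment, threshold 0.05, 2 residual degrees of freedom). For 1 gene, the smallest p an exact permutation of 2 against 2 samples can give is 0.333. The fit was run on simulated arrays with independent noise at the typical spread for each signal level. Known changes were placed only in the brighter probes, so that run does not cover changes in dim probes or differences in array scaling. Alternatives were other scalings, removal of the dimmest 30% of genes, a pseudocount of 50, an intensity trend, the robust option, other probe rules, the replicate number as a block and each sample left out.

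The members, gene lists and naming rule were chosen with earlier results of these data known. The rule named, in each role of the pathway list, up to 3 genes past a test or the 1 with the smallest trend p, plus the 3 largest and 3 smallest differences among genes above the median level. CSNK1E, WLS and TLE1 were named by its last part. LGR6 and the marker genes are named outside it, after their values were seen. The motifs were chosen after the members' values were seen. An older symbol was accepted for a listed gene if no other human gene uses it. Same-numbered samples' deviations from their group means correlated at 0.0904 across 17778 genes. The number of arrays limits the precision.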

Additional observations from a re-analysis of the deposited data

How the results depend on the processing

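The count of 9 genes past limma's adjusted p of 0.05 was 2 for values as deposited, 0 with median centring, with the replicate block, with each probe as its own row and in each of the 4 fits without 1 sample, and 138 without the dimmest 30% of genes, 251 with a pseudocount of 50 and 260 in the trend test. Chosen after seeing the data, the trend test was also run with each probe as its own row, giving 283 probes, and without each sample, giving 0. At an unadjusted limma p under 0.05 the replicate block left 1878 genes. Of the 10 members, 0 passed in the main setting and 1, LGR4, without the dimmest 30%, with a pseudocount of 50, in the trend test and in the trend test per probe; LGR4 was chosen by this contrast, so nothing is read from that call. Of the other Wnt pathway genes, 0 passed in the main setting, 1 without the dimmest 30% and 2 with a pseudocount of 50, in the trend test and in the trend test per probe. Same-numbered samples' deviations from their group means correlated at 0.0904, which cannot show whether the numbers mark a shared batch. Blocking on the replicate numbers left 0 members and 0 pathway genes past the threshold. Among the named pathway genes, FZD2 turned to -0.019 with median centring, and WLS ranged from -1.73 to 0.46 when 1 sample was left out, turning to 0.11 without control replicate 2 and 0.46 without berberine replicate 1, with the same values in the trend test. The cause was not tested. The differences of LRP6, AXIN1, AXIN2 and TCF7L2 changed sign in some settings. With 2 residual degrees of freedom and most members within the range of the olfactory receptor probes, small differences were not detectable.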

Other observations

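Beta-catenin also joins cadherins to the cytoskeleton at cell contacts, and 18 of 20 genes of adherens junctions, desmosomes and tight junctions were measured. This list was chosen after the values of CTNNB1 were seen. In limma's tests with and without a trend 0 of the 18 passed, and 3 had an unadjusted limma p under 0.05 without the trend, 2 higher and 1 lower, against 13.0% of all genes. The groups did not overlap for 38.9% of them, against 45.0% of all genes, and the median difference was 0.01, against -0.01 for all genes. CDH1, the epithelial cadherin that beta-catenin binds, read 6.72 and 6.89 with berberine and 6.42 and 6.29 in controls, a difference of 0.45 with an SE of 0.128. JUP, the beta-catenin relative plakoglobin, read 7.54 and 7.20 with berberine, against 6.97 and 6.74 in controls, a difference of 0.51 with an SE of 0.178. DSP, the desmosomal linker desmoplakin, read 9.41 and 9.38 with berberine and 9.74 and 9.77 in controls, a difference of -0.36 with an SE of 0.106. DSC2, the desmosomal cadherin desmocollin 2, read 5.73 and 5.43 with berberine and 6.11 and 7.17 in controls, a difference of -1.06 with an SE of 0.401. TJP1, the tight junction scaffold ZO-1, read 10.22 and 10.29 with berberine, against 10.08 and 9.37 in controls, a difference of 0.53 with an SE of 0.269. CTNND1, the catenin p120, had the brightest probe of the list, at 12.66 and 12.60 with berberine and 12.68 and 12.82 in controls. CDH1, JUP, DSP, DSC2, TJP1 and CTNND1 are named after their values were seen.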
